A study of Mus musculus with 8 samples.

Results

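Interferon-stimulated genes are the genes that cells switch on when an interferon reaches its receptor. Described here are 33 such genes of the mouse pancreas, chosen by symbol as known targets of interferon. They fall into 5 members of the OAS family, 3 of the IFIT family, 6 guanylate-binding proteins (GBP family), 4 immunity-related GTPases (IRG family), 4 transcription factors, 9 other effectors and 2 feedback inhibitors. Of the 33 symbols, 32 matched a gene with deposited transcripts, among 29621 genes in all, and Gbp6 was not analysed here. RNA sequencing of ribosome-depleted total RNA was done on whole pancreas, taken after perfusion from C57BL/6 animals that were 6 weeks old (postnatal day 42). The KPC genotype combines Cre recombinase driven by p48 (Ptf1a), which is active from pancreatic progenitors onward, with a Cre-activated oncogenic allele and floxed Trp53. KPC-OG mice have all of this and, in the R26 locus, an OG allele that Cre induces. No group without the oncogenic allele was analysed here, so every comparison is between KPC-OG and KPC, with 4 libraries each, and Cre acts only in the p48 lineage while the RNA is of the whole organ.

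Type I and type III interferons signal through a complex of STAT proteins with Irf9, which binds the interferon-stimulated response element (ISRE). Interferon gamma signals through a STAT dimer that binds the gamma-activated site (GAS). The OAS enzymes sense double-stranded RNA and make oligoadenylates as a second messenger, while IFIT proteins bind foreign RNA. GBP and IRG proteins are GTPases that attack the vacuoles of intracellular pathogens, and they answer most strongly to interferon gamma.

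The promoters below show the element that many of these genes share, in genes that did and did not differ between the genotypes. Each is printed from 250 bases before to 50 bases after the start of transcription, read 5′ to 3′ along the gene, from RefSeq on GRCm38.p6. Capitals mark matches to the ISRE pattern (GAAA, any 2 bases, GAAA) and the GAS pattern TTCNNNGAA on either strand, and overlapping matches run together. Isg15 (chr4:156200769-156201068, minus strand) holds 3 overlapping ISRE matches, and Oas1a (chr5:120907476-120907775, minus strand) holds 2 ISRE matches and a GAS match. Gbp2 (chr3:142620413-142620712, plus strand) holds 1 ISRE match, and these 3 genes were higher in KPC-OG. Irgm1 (chr11:48871371-48871670, minus strand) holds 2 ISRE matches and had nearly equal levels in the 2 genotypes. Oasl2 (chr5:114896684-114896983, plus strand) rose in KPC-OG and holds no match to either pattern.
Isg15: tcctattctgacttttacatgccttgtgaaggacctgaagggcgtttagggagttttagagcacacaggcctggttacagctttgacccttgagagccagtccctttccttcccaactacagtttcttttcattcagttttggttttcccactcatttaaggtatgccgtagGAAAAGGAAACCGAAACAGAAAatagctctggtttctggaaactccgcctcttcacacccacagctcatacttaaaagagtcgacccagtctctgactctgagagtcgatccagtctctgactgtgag
Oas1a: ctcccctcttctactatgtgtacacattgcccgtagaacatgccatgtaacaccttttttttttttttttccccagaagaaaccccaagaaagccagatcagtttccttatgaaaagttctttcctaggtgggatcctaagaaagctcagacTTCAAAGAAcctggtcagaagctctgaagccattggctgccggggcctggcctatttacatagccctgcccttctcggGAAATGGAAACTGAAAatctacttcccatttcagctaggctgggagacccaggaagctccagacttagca
Gbp2: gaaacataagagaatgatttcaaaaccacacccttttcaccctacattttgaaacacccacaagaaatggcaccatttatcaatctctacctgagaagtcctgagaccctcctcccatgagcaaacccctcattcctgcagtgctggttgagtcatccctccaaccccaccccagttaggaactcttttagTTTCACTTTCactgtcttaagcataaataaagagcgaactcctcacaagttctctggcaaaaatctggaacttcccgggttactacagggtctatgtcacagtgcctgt
Irgm1: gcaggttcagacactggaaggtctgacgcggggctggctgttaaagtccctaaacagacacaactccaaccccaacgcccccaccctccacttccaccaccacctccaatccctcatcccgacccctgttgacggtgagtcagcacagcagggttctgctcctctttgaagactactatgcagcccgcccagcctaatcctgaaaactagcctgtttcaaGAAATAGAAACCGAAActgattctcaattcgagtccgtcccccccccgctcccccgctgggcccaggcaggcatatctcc
Oasl2: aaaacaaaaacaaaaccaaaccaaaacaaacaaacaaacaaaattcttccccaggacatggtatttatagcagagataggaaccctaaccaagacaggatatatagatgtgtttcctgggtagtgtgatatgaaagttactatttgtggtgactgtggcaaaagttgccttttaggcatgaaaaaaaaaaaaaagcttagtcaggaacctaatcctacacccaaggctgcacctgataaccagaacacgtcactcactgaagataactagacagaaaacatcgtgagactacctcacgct

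Of the 32 matched members, 24 had a promoter in the RefSeq table. Some genes have more than 1 promoter there, and a gene counts if any of its promoters holds a match. An ISRE match was found in 16 of the 24 genes (66.67%), against 3.993% of the 27025 genes in the table. A GAS match was found in 8 (33.33%), against 9.554% of all genes. All 4 GBP genes and all 3 IRG genes in the table had a promoter with an ISRE match, although a second promoter of Gbp3 held none, while the promoters of Oasl1, Oasl2, Ifit2, Irf1, Irf7, Irf9, Ifi44 and Xaf1 held none. Among members higher in KPC-OG, 3 of 5 genes had an ISRE match, and among members that did not pass the test 13 of 19 had one. A match is a string of letters and not a measured binding site. Only exact matches were searched for, so a promoter without a match may still hold a variant of the element.

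The KPC libraries held 7373286 to 11292570 estimated reads, and the KPC-OG libraries 13671606 to 18292115. Levels are counts per unit of library size (CPM) after scaling by the trimmed mean of M values, which sets each library against its typical gene, so that "higher" means relative to that gene. When each library was scaled by its total only, the log2 fold change of the median gene shifted up by 1.74. Acinar, duct and macrophage markers differed between the genotypes. The 11 acinar markers were detected in every library, and 10 of the 11 fell in KPC-OG, while 7 of 8 duct markers and 11 of 12 macrophage markers rose. Summed liver markers stood at 258 CPM in KPC-OG 2 and 300.3 CPM in KPC-OG 3, against 14.1 to 28.5 CPM in the other 6 libraries. In whole tissue, fewer cells of a type and less RNA per cell cannot be told apart, and since the labels do not tie each library to its own mouse, the p-values may cover technical spread only.

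Of 31 tested members, 6 rose in KPC-OG (Oas1a, Oasl1, Oasl2, Gbp2, Isg15 and Zbp1), 1 fell (Mx1) and 24 did not pass edgeR's quasi-likelihood test at an adjusted p under 0.05. The share that rose, 19.4%, was near that of all 14267 tested genes, of which 17.4% rose, and the share that fell was 3.23% against 16.6%. The median log2 fold change of the members was 0.57, against 0.09 for all tested genes, and 27 of 31 members had a positive fold change, against 7842 of 14267 genes. All KPC-OG libraries lay above all KPC libraries in 6 members (19.4%), against 17.6% of all genes, and below in Mx1 alone, against 17.0%. Tested members rest on few reads in KPC, from 14 for Mx2 to 370 for Irf1 over the 4 libraries, against 155 for Mx2 to 2656 for Irf9 in KPC-OG. Oasl1, Oasl2 and Gbp2 rose under all 19 alternative settings that centre on the typical gene. The number that rose was 3 without KPC-OG 2, 10 without KPC-OG 3 and 3 without KPC-OG 4, and it was 4 when KPC-OG 2 and 3 were left out together.

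**Figure D1:**
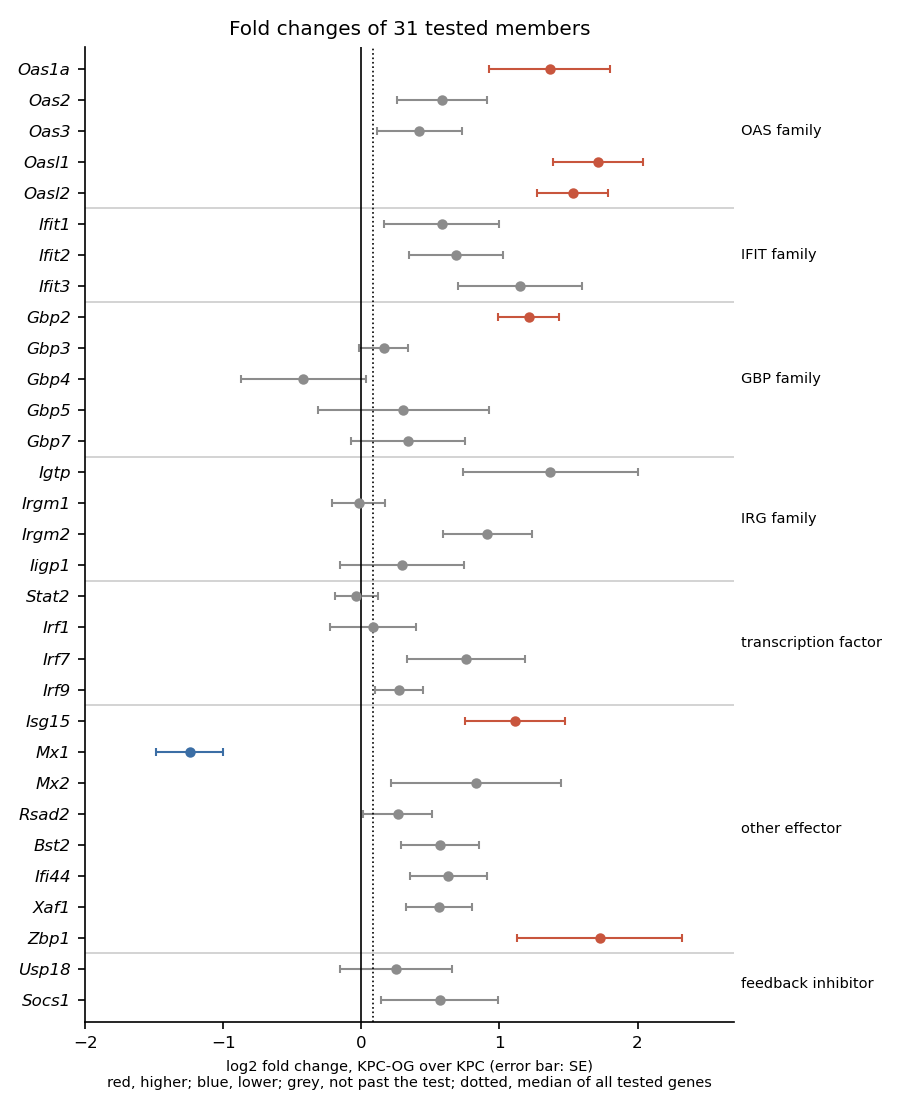
Fold changes of the 31 tested members by role. Each point is the log2 fold change of KPC-OG over KPC relative to the typical gene, with its SE, and the dotted line is the median of all tested genes at 0.09. The 3 OAS genes Oas1a, Oasl1 and Oasl2 lie furthest right within their family, and Mx1 is the one member that fell.

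Transcripts of the interferons themselves were close to absent. Of 21 ligand genes, 16 had no count in any library, among them Ifnb1 and 13 other type I genes. Interferon gamma (Ifng) had 1 read over the KPC libraries and 2 over the KPC-OG libraries. A count of 0 over a group allows up to 0.148 CPM in KPC and 0.0249 CPM in KPC-OG, counting error only. The ligand with the most reads was Ifnk, the interferon of keratinocytes, with 37 reads over all 8 libraries. Whether interferon was made elsewhere or at other times cannot be read from these libraries.

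Receptor transcripts rose in KPC-OG for 3 of 6 genes, and none fell, where 17.4% of all tested genes rose and 16.6% fell. Ifngr1, the ligand-binding chain of the interferon gamma receptor, stood at 13.2, 19.7, 15.4 and 26.3 CPM in KPC 1 to 4 and at 49.0, 54.3, 39.5 and 55.5 CPM in KPC-OG 1 to 4. Every KPC-OG library was above every KPC library. The level of Ifngr1 was 2.64-fold higher (log2 fold change 1.40 ± 0.21 SE, adjusted p = 0.00131 by edgeR's quasi-likelihood test).
Both chains of the type I receptor also rose. Ifnar2 stood at 10.1, 9.58, 8.76 and 9.79 CPM in KPC and at 17.1, 16, 13.4 and 20.2 CPM in KPC-OG (log2 fold change 0.80 ± 0.15 SE, edgeR adjusted p = 0.00353). Ifnar1 ranged from 16.8 to 24.4 CPM in KPC and from 25.0 to 31.4 CPM in KPC-OG (0.44 ± 0.14 SE, edgeR adjusted p = 0.0350). The groups did not overlap for either chain, but the call of Ifnar1 was lost under 9 of the 19 alternatives centred on the typical gene (adjusted p from 0.0167 to 0.467), among them leaving out replicate 1 or 3 of KPC, or replicate 1, 2 or 4 of KPC-OG. Ifngr2, Il10rb and Ifnlr1, the partner chain of the gamma receptor and the 2 chains of the type III receptor, had log2 fold changes of 0.38, 0.25 and 0.55 that did not pass the test.

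Values are given for a pair of adaptors of nucleic acid sensing that passed the test. Most genes on the list of nucleic acid sensors and adaptors did not pass it. Of all tested genes, 17.4% rose and 16.6% fell. Tmem173, which encodes the adaptor STING of cytosolic DNA sensing, rose from 8.20 ± 1.48 to 16.1 ± 2.83 CPM (SD, n = 4 each; log2 fold change 0.97, edgeR adjusted p = 0.00356). Mavs, the adaptor of cytosolic RNA sensing, fell from 19.2 ± 3.91 to 11.9 ± 1.38 CPM (SD, n = 4 each; log2 fold change -0.69, edgeR adjusted p = 0.0119), with KPC 2 at 13.3 CPM inside the KPC-OG range. The call of Mavs was lost under 2 of 19 alternatives, which were re-centred library sizes and protein-coding transcripts only (adjusted p from 0.00163 to 0.0552 over all 19). In TPM, without centring on the typical gene, Mavs averaged 5.77 for KPC against 10.2 for KPC-OG.

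**Figure D2:**
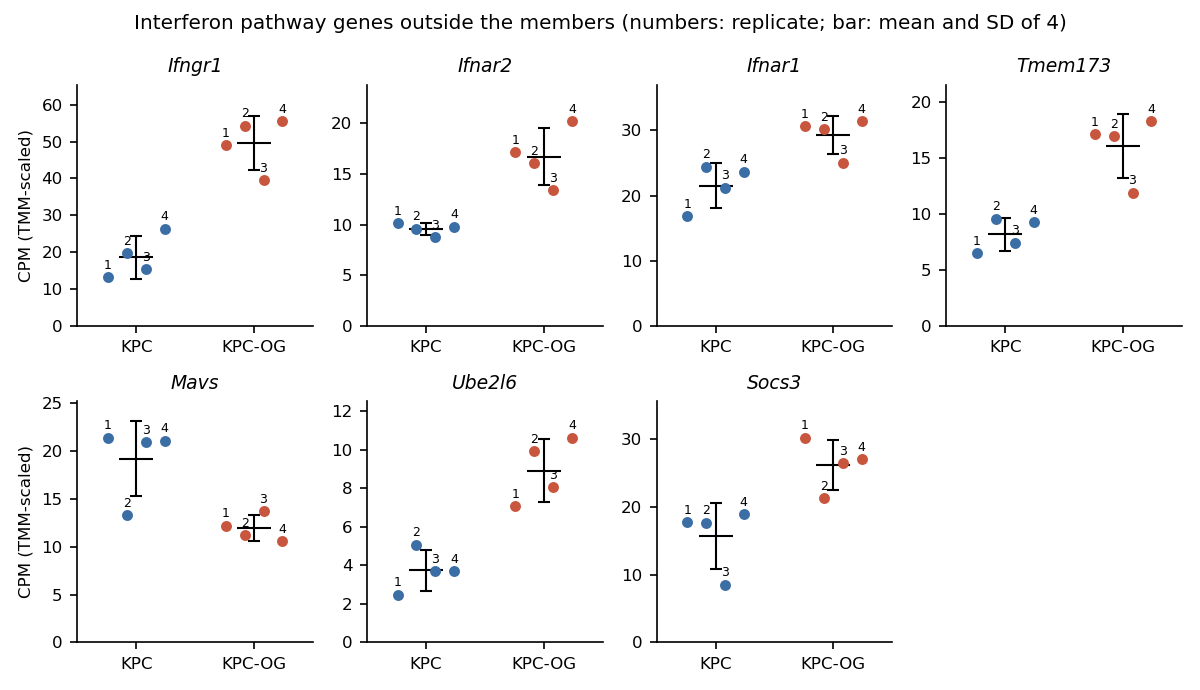
Receptors, sensors and related genes outside the 33 members, as CPM in each library. Points carry the replicate number and the bar gives the mean and SD of 4 libraries. Ifngr1, Ifnar2, Ifnar1, Tmem173, Ube2l6 and Socs3 show no overlap between the genotypes, and Mavs, which fell relative to the typical gene, overlaps through KPC 2.

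The transcription factors that carry the signal did not pass the test. Irf1, the first factor induced by interferon gamma and the member of this class with the highest level per transcript length, stood at 13.8, 20.5, 7.96 and 26.8 CPM in KPC and at 16, 24.7, 14.9 and 18.4 CPM in KPC-OG. The KPC libraries spanned the whole KPC-OG range, and the log2 fold change was 0.08 ± 0.31 (SE, edgeR adjusted p = 0.860). Stat2, the STAT specific to type I and type III signalling, averaged 15.4 ± 3.25 CPM in KPC and 15.1 ± 0.774 CPM in KPC-OG (SD, n = 4 each). Irf9, its DNA-binding partner, averaged 17.7 ± 3.92 and 21.4 ± 3.33 CPM. Irf7, the factor that amplifies the type I response and is itself an interferon target, ranged from 1.86 to 9.58 CPM in KPC and from 6.82 to 14.1 CPM in KPC-OG (log2 fold change 0.76 ± 0.43 SE, edgeR adjusted p = 0.202). Irf7 passed the test under 1 of 19 alternatives, a block on the replicate number (adjusted p from 0.0359 to 0.692 over all 19). Protein-coding transcripts made up 17.5% of Irf7 TPM in KPC and 48.5% in KPC-OG. Of 9 other interferon regulatory factors and their binding proteins, Irf2bpl alone rose, by a log2 fold change of 0.79 (edgeR adjusted p = 0.00511). That is 11.1% of the list, against 17.4% of all tested genes.

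The OAS family held 3 of the 6 members that rose. They are 3 of its 5 tested genes, where 17.4% of all tested genes rose, and a share of so few genes was not tested.
Oasl2, a family member with a ubiquitin-like tail (ENSMUSG00000029561, chromosome 5, 114896936 to 114912234, GRCm38), had the highest level per length of the family, with a KPC mean of 1.93 ± 0.586 and a KPC-OG mean of 21.4 ± 10.4 (SD, n = 4 each) as TPM, the share of all transcripts corrected for length. Oasl2 stood at 3.06, 3.76, 4.25 and 4.73 CPM in KPC and at 10.5, 12.8, 7.20 and 15.0 CPM in KPC-OG. All KPC-OG libraries were above all KPC libraries, with KPC-OG 3 the nearest to KPC. The level of Oasl2 was 2.89-fold higher (log2 fold change 1.53 ± 0.26 SE, edgeR adjusted p = 0.00193). Transcripts annotated as protein-coding made up 25.2% of Oasl2 TPM in KPC and 39.7% in KPC-OG. The rest was annotated for nonsense-mediated decay or a retained intron, and the call held with protein-coding transcripts only. Among the protein-coding transcripts, a short one of 632 bases averaged 0.0232 TPM in KPC and 6.71 TPM in KPC-OG. The longest, of 3123 bases, averaged 0.349 and 1.55 TPM, and its share of Oasl2 TPM was 18.1% in KPC and 7.24% in KPC-OG. Single transcripts were not tested.
Oasl1, a neighbour of Oasl2 that lacks synthetase activity (ENSMUSG00000041827, chromosome 5, 114923240 to 114937915), stood at 1.15, 2.44, 0.796 and 2.20 CPM in KPC and at 5.97, 6.22, 3.99 and 5.98 CPM in KPC-OG. Here too KPC-OG 3 was the lowest of its group and still above KPC 2, the highest KPC library. The log2 fold change of Oasl1 was 1.71 ± 0.33 (SE, edgeR adjusted p = 0.00344). Protein-coding transcripts made up 42.7% of Oasl1 TPM in KPC and 45.45% in KPC-OG, and this call also held with them alone.

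Oas1a, an active synthetase (ENSMUSG00000052776, chromosome 5, 120896256 to 120907521), stood at 0.382, 2.63, 2.65 and 2.03 CPM in KPC and at 4.90, 6.06, 2.82 and 5.66 CPM in KPC-OG. The groups did not overlap, although KPC-OG 3 lay close to KPC 2 and KPC 3, and KPC 1 held 2 reads. The log2 fold change was 1.37 ± 0.44 (SE, edgeR adjusted p = 0.0348), and the call was lost under 7 of 19 alternatives, among them leaving out KPC 4 or replicate 1, 2 or 4 of KPC-OG (adjusted p from 0.0110 to 0.129 over all 19). Of the 20-base words of Oas1a transcripts, 76.2% also occur in other genes, nearly all in Oas1g, so the split of reads between the 2 genes is an estimate. Oas1g rose too (log2 fold change 1.97 ± 0.47 SE, edgeR adjusted p = 0.00981), and the 2 genes summed to 0.764, 4.51, 2.92 and 3.38 CPM in KPC and to 8.04, 10.8, 5.76 and 10.8 CPM in KPC-OG. The larger synthetases Oas2 and Oas3 averaged 4.72 and 3.88 CPM in KPC and 7.21 and 5.23 CPM in KPC-OG, with overlapping libraries and edgeR adjusted p-values of 0.193 and 0.320. The median log2 fold change of the 5 OAS members was 1.37, and 0.67 with TPM and a pseudocount of 1 after centring on the typical gene.

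Isg15, the ubiquitin-like protein that is attached to other proteins after interferon exposure (ENSMUSG00000035692, chromosome 4, 156199424 to 156200818), stood at 0.955, 1.5, 1.06 and 1.35 CPM in KPC and at 1.92, 3.96, 1.96 and 2.71 CPM in KPC-OG. The groups did not overlap, and KPC-OG 2 was the highest. The log2 fold change was 1.11 ± 0.36 (SE, edgeR adjusted p = 0.0368), resting on 25 reads over the KPC libraries, and the call was lost under 10 of 19 alternatives (adjusted p from 0.0266 to 0.208), among them leaving out replicate 1, 3 or 4 of KPC, or replicate 2 or 4 of KPC-OG. Ube2l6, the conjugating enzyme for Isg15, rose from 3.75 ± 1.06 to 8.92 ± 1.63 CPM (SD, n = 4 each; log2 fold change 1.25, edgeR adjusted p = 0.00340). Its activating enzyme Uba7, named after its values were seen, rose by a log2 fold change of 1.005 (edgeR adjusted p = 0.0144). Usp18, which removes Isg15 from proteins and blocks the type I receptor, stood at 2.48, 3.38, 1.06 and 3.55 CPM in KPC and at 2.47, 5.10, 1.83 and 3.22 CPM in KPC-OG. The ranges overlapped, with KPC-OG 2 above every KPC library and KPC 3 below every KPC-OG library (log2 fold change 0.25 ± 0.41 SE, edgeR adjusted p = 0.671). Socs1, the inhibitor of JAK kinases, averaged 0.934 ± 0.515 CPM in KPC and 1.42 ± 0.320 CPM in KPC-OG and did not pass the test. The related inhibitor Socs3 rose (log2 fold change 0.72, edgeR adjusted p = 0.0272), a call lost under 4 of 19 alternatives, among them leaving out KPC 1, KPC-OG 1 or KPC-OG 4 (adjusted p from 0.00639 to 0.191). The phosphatase Ptpn2 rose too (log2 fold change 0.52, edgeR adjusted p = 0.0212), a call lost under 7 of 19, among them leaving out replicate 1, 2 or 4 of KPC-OG (adjusted p from 0.0109 to 0.392). Socs3 and Ptpn2 were the 2 that rose of 11 tested genes of JAK-STAT signalling and its inhibitors (18.2%, against 17.4% of all tested genes). Of those 11 genes, 5 had a negative fold change. Differences between these inhibitors were not tested.

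None of the 3 IFIT genes, which lie together on chromosome 19, passed the test.
Ifit3, the best expressed per length, stood at 2.48, 4.13, 0.796 and 4.22 CPM in KPC and at 5.78, 8.76, 3.08 and 8.90 CPM in KPC-OG. KPC-OG 3 fell inside the KPC range. The log2 fold change of Ifit3 was 1.15 ± 0.45 (SE, edgeR adjusted p = 0.0718), and Ifit3 passed the test under 4 of 19 alternatives, among them without KPC-OG 3 (adjusted p = 0.0171, range over the alternatives 0.00588 to 0.221). Ifit3 shares 69.99% of its 20-base words with other genes, almost all with Ifit3b, and summed with Ifit3b it averaged 3.61 ± 1.53 CPM in KPC and 8.41 ± 3.62 CPM in KPC-OG (SD, n = 4 each). Ifit1 and Ifit2 had log2 fold changes of 0.58 ± 0.42 and 0.69 ± 0.34 (SE). The lowest value of Ifit1 in the series was in KPC-OG 3, at 1.70 CPM, below all 4 KPC libraries.

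In the GBP family 1 of 5 tested members passed the test, a share of 20% where 17.4% of all tested genes rose.
Gbp2 (ENSMUSG00000028270, chromosome 3, 142620602 to 142638008) stood at 4.39, 6.76, 4.25 and 6.75 CPM in KPC and at 9.38, 13.4, 13.6 and 15.5 CPM in KPC-OG. The groups did not overlap, and the level of Gbp2 was 2.32-fold higher (log2 fold change 1.21 ± 0.22 SE, edgeR adjusted p = 0.00294).
Its neighbours on chromosome 3 also had positive fold changes but did not pass the test, and their difference from Gbp2 was not tested. Gbp3 averaged 9.46 ± 1.69 CPM in KPC and 10.6 ± 1.70 CPM in KPC-OG (SD, n = 4 each), with a log2 fold change of 0.16 ± 0.18 (SE). Gbp7 stood at 4.01, 14.3, 3.72 and 13.7 CPM in KPC and at 7.94, 12.6, 13.5 and 11.9 CPM in KPC-OG. Gbp5 stood at 0.573, 4.13, 0.531 and 5.91 CPM in KPC and at 1.86, 4.43, 3.86 and 4.17 CPM in KPC-OG. In both genes KPC 2 and KPC 4 lay within or above the KPC-OG range while KPC 1 and KPC 3 lay below it.
Gbp4, which lies on chromosome 5 and shares 34.6% of its words with other genes, was the one member of the family with a negative fold change (log2 fold change -0.42 ± 0.45 SE, edgeR adjusted p = 0.507). The median of the 5 GBP members was 0.30, and it ranged from 0.06 without KPC 3 to 0.61 without KPC 4 over all 22 alternatives. None of 3 tested GBP genes outside the members passed the test.

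No member of the IRG family passed the test either, and their median log2 fold change of 0.60 became 0.35 without KPC 3. Irgm1, a regulator of the other IRG proteins and the best expressed per length, stood at 16, 19.5, 11.4 and 15.2 CPM in KPC and at 16.4, 19.1, 12 and 14.1 CPM in KPC-OG. The 2 groups covered almost the same range, with a log2 fold change of -0.02 ± 0.19 (SE, edgeR adjusted p = 0.954).
Irgm2 stood at 6.30, 12.2, 3.45 and 13.0 CPM in KPC and at 15.6, 19.9, 13.9 and 17.7 CPM in KPC-OG. Its groups did not overlap, and its log2 fold change of 0.91 ± 0.32 (SE) missed the threshold (edgeR adjusted p = 0.0521), which was passed under 7 of 19 alternatives (adjusted p from 0.00947 to 0.222), among them without KPC 2, KPC 4 or KPC-OG 3.
Igtp overlaps Irgm2 on the same strand of chromosome 11 and shares 19.9% of its words with other genes, mainly Irgm2. It had 0 reads in KPC 1 and ranged up to 5.45 CPM in KPC and from 5.27 to 11.3 CPM in KPC-OG (log2 fold change 1.37 ± 0.63 SE, edgeR adjusted p = 0.126). Iigp1 averaged 10.3 ± 6.07 CPM in KPC and 12.9 ± 5.66 CPM in KPC-OG. Of 10 tested IRG genes outside the members, Gm4951 alone rose (10%, against 17.4% of all tested genes). Its log2 fold change was 1.23 ± 0.39 (SE, edgeR adjusted p = 0.0337). The call was lost under 9 of 18 alternatives, among them leaving out replicate 1, 3 or 4 of KPC, or 2, 3 or 4 of KPC-OG (adjusted p from 0.0152 to 0.278).

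Among the 8 other effectors tested, Mx1 was the one with a negative fold change.
Mx1 encodes a dynamin-like GTPase against orthomyxoviruses (ENSMUSG00000000386, chromosome 16, 97447035 to 97462907), and RefSeq lists the C57BL/6 copies of Mx1 and Mx2 as transcribed pseudogenes. It stood at 16.6, 9.95, 9.29 and 15.9 CPM in KPC and at 4.69, 5.55, 7.46 and 4.44 CPM in KPC-OG, with no overlap. Relative to the typical gene it fell by 1.24 on the log2 scale (SE 0.24, edgeR adjusted p = 0.00393), whereas in TPM, which has no such centring, Mx1 averaged 3.64 ± 0.749 TPM for KPC against 4.55 ± 0.729 TPM for KPC-OG (SD, n = 4 each).
Transcripts annotated for nonsense-mediated decay made up 35.3% of Mx1 TPM in KPC and 63.3% in KPC-OG. With protein-coding transcripts only, Mx1 missed the threshold at a log2 fold change of -2.11 (edgeR adjusted p = 0.0676), and Mx1 passed the test under the other 18 alternatives. Mx1 was highest in KPC 1 and KPC 4 and, within KPC-OG, in KPC-OG 3. The 11 acinar markers summed to 463249, 245614, 271555 and 343147 CPM in KPC and to 64550, 43104, 123255 and 35633 CPM in KPC-OG, so they were highest in the same libraries, and their part in the result was not tested. Mx2 averaged 0.683 ± 0.568 CPM in KPC and 1.22 ± 0.590 CPM in KPC-OG and did not pass the test.

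Zbp1, a sensor of Z-form nucleic acid that can trigger necroptosis (ENSMUSG00000027514, chromosome 2, 173206612 to 173218923), stood at 0.764, 2.25, 0 and 1.01 CPM in KPC and at 1.77, 5.08, 3.08 and 4.14 CPM in KPC-OG. KPC-OG 1 lay below KPC 2. The log2 fold change was 1.73 ± 0.60 (SE, edgeR adjusted p = 0.0472), and the call was lost under 11 of 19 alternatives (adjusted p from 0.0138 to 0.204), among them leaving out any one of replicates 1, 3 and 4 of KPC and 2, 3 and 4 of KPC-OG.
Bst2, the tether of budding viruses and the best expressed of this class, stood at 13.0, 14.6, 6.37 and 19.8 CPM in KPC and at 18, 27.1, 17.2 and 18.4 CPM in KPC-OG. KPC 4 lay inside the KPC-OG range, and the log2 fold change was 0.57 ± 0.28 (SE, edgeR adjusted p = 0.144). Rsad2, which encodes viperin, averaged 3.68 ± 0.527 CPM in KPC and 4.43 ± 1.14 CPM in KPC-OG. Ifi44 and Xaf1 had log2 fold changes of 0.63 ± 0.28 and 0.56 ± 0.24 (SE), with edgeR adjusted p-values of 0.102 and 0.0927. Neither passed the test.
Ido1, the tryptophan-degrading enzyme induced by interferon gamma, was below the filter on low counts, with 1 read over the KPC libraries and 52 over the KPC-OG libraries. Per effective library size this is a ratio of 8.75 (exact Poisson-based interval 1.5 to 352, 95%, counting error only). With no filter Ido1 did not pass the test (edgeR adjusted p = 0.0726).

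**Figure D3:**
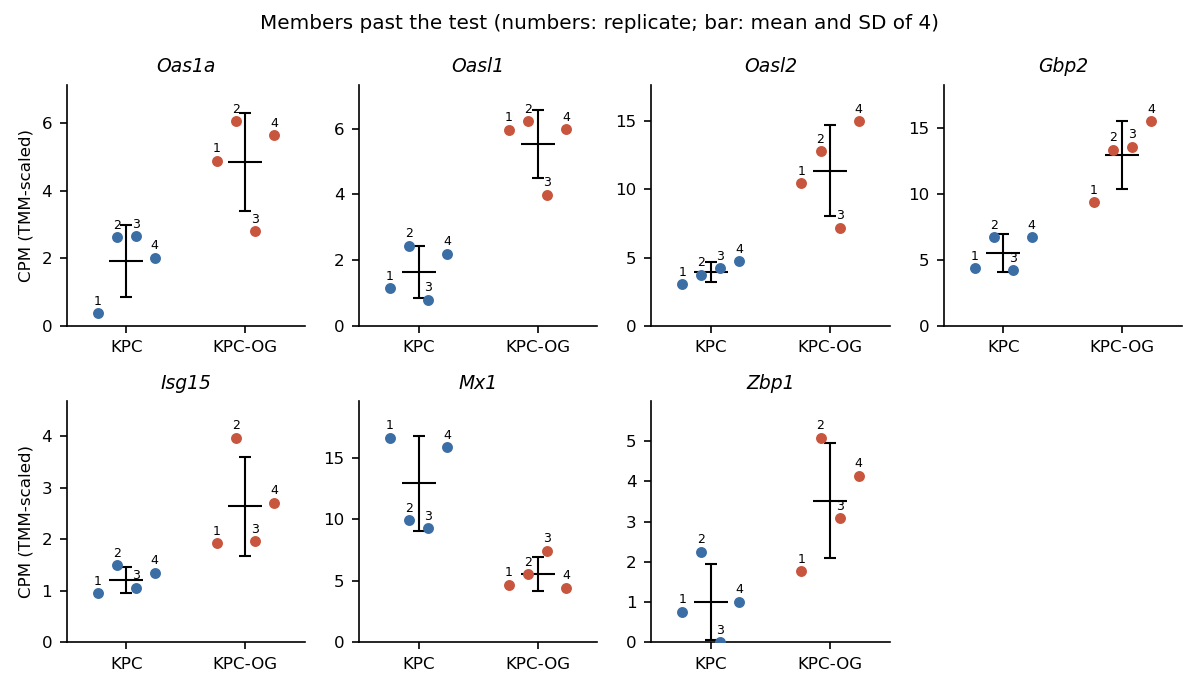
The 7 members past the test, as CPM in each library. Points carry the replicate number and the bar gives the mean and SD of 4 libraries. KPC-OG 3 is the lowest KPC-OG library for Oas1a, Oasl1 and Oasl2, KPC-OG 1 lies below KPC 2 for Zbp1, and Mx1 fell relative to the typical gene but not in TPM.

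Of 55 tested interferon-stimulated genes outside the 33, 9 rose and 1 fell, with a median log2 fold change of 0.49. The share that rose, 16.4%, was again near the 17.4% of all genes. Trim14, an adaptor of RNA sensing, stood at 0.764, 1.5, 1.06 and 1.52 CPM in KPC and at 3.74, 5.23, 4.52 and 5.36 CPM in KPC-OG, without overlap (log2 fold change 1.94 ± 0.29 SE, edgeR adjusted p = 0.00124). Ifitm2, a membrane protein that blocks viral entry, rose from 22.7 ± 2.68 to 56.2 ± 17.3 CPM (SD, n = 4 each; log2 fold change 1.31, edgeR adjusted p = 0.00269), and its KPC-OG 3 value of 31.2 CPM was the closest to KPC. Trim25, a ubiquitin ligase of RNA sensing and named here after its values were seen, was the one that fell (log2 fold change -0.56, edgeR adjusted p = 0.0139), while its mean TPM was 5.91 for KPC against 13.0 for KPC-OG.

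Values within a genotype spread widely. The median coefficient of variation over the 4 libraries was 46.4% in KPC and 28.4% in KPC-OG for the members, against 23.4% and 16.1% for all tested genes. Genes were not matched for level here. Few reads per member and the lower effective depth of KPC widen this spread by counting error, and that part was not separated. In KPC it was 56.0% for the GBP family and 55.8% for the IRG family. KPC 2 held the highest KPC value of 18 of the 31 members and KPC 4 that of 11, while each was highest for 23.0% and 22.7% of all genes. In 19 of 31 members (61.3%), all 5 tested GBP genes included, KPC 2 and KPC 4 both lay above KPC 1 and KPC 3, an order seen in 19.4% of all tested genes. In KPC-OG, KPC-OG 2 was the highest library for 23 of 31 members, against 19.1% of all genes. KPC-OG 3 was the lowest for 18, against 35.3%, and KPC-OG 1 for 12, against 22.5%. These orders were noticed in the data and carry no test.

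**Figure D4:**
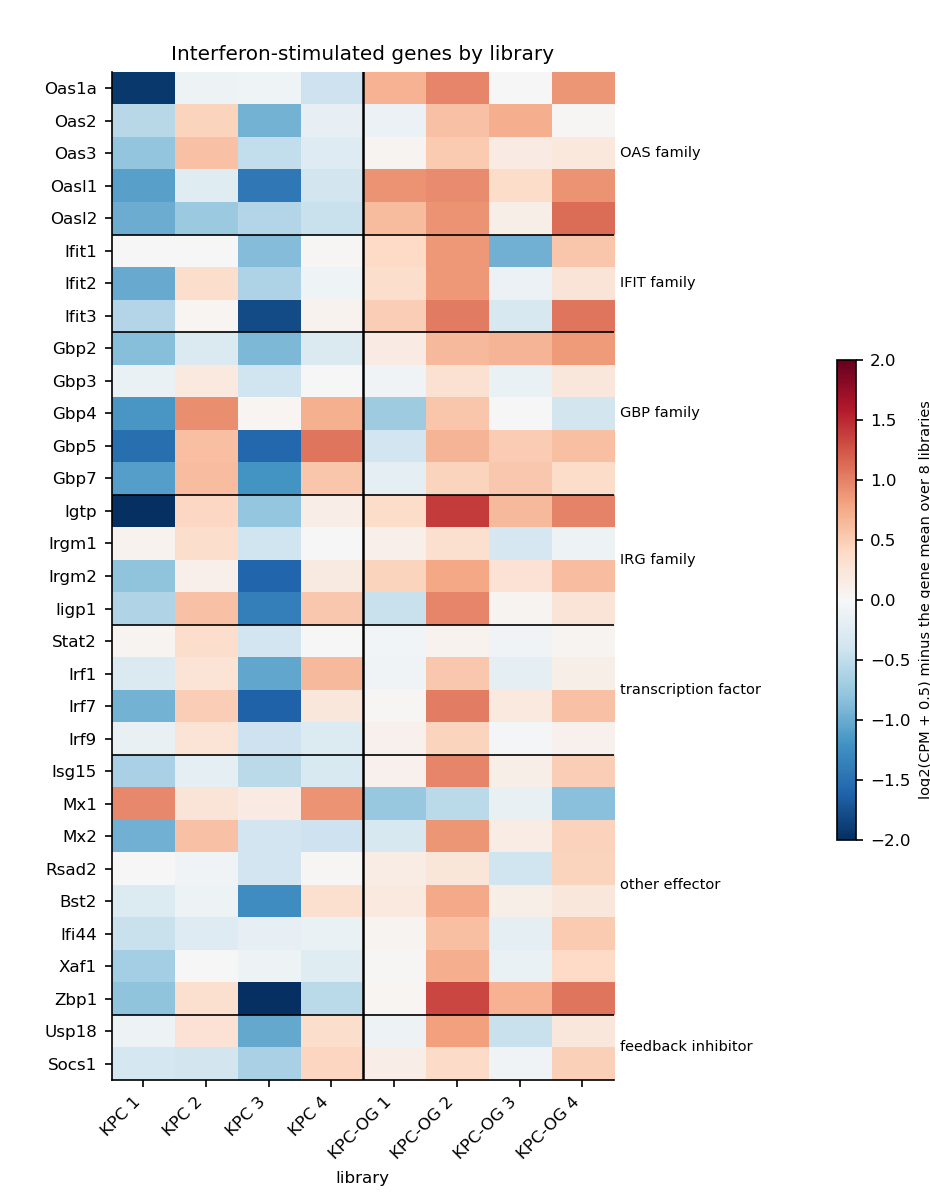
Every tested member in every library. Colours give log2(CPM + 0.5) minus the gene's mean over the 8 libraries and end at 2 in either direction, with families divided by lines. In the Gbp5, Gbp7 and Iigp1 rows KPC 1 and KPC 3 are blue and KPC 2 and KPC 4 are red, and Mx1 shows the reverse of the rows around it.

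Leukocyte markers differed between the KPC libraries in the same order. The 5 pan-leukocyte markers, all detected in every library, summed to 50.6, 185.6, 56.3 and 216.6 CPM in KPC and to 123.6, 234.5, 222.5 and 191.3 CPM in KPC-OG. The 14 markers of T and NK lymphocytes summed to 2.48, 44.7, 2.39 and 38.7 CPM in KPC, where 7 and 9 of the 14 were at 0 in KPC 1 and KPC 3, among them the T cell receptor component Cd3g. The adhesion molecule Cd2, also on this list, stood at 0.382, 3.94, 0 and 4.05 CPM. In KPC-OG the lymphocyte markers summed to 5.60, 51.5, 29.9 and 15.5 CPM, so KPC-OG 2 was high in both the markers and the members. KPC-OG 3 was second in the markers and lowest in 18 of 31 members. KPC-OG 1, lowest in the lymphocyte and pan-leukocyte sums, was lowest in 12 of 31 members (38.7%), against 22.5% of all tested genes. It was lowest in 4 of the 5 GBP genes, and KPC-OG 3 in 1. None of the 9 lymphocyte markers tested passed the test between the genotypes.

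Between the genotypes, macrophage markers did differ. Summed over 12 genes they stood at 775 to 1080 CPM in the KPC-OG libraries, each above every KPC library. They were higher in KPC-OG as were the 6 members that rose, and their part in the result was not tested. In KPC the macrophage markers summed to 240.4, 393.5, 316.8 and 452.9 CPM, so KPC 2 and KPC 4 were again above KPC 1 and KPC 3. The 9 endothelial markers had the same order, at 114.0, 147.3, 127.1 and 133.7 CPM, and the duct and acinar sums did not. Within KPC-OG the macrophage markers summed to 802.3, 775.5, 1080 and 1069 CPM, so they were highest in KPC-OG 3, where Oas1a, Oasl1 and Oasl2 were lowest. The duct markers summed to 322.7 to 467.2 CPM in KPC and to 1211, 1067, 675.6 and 1286 CPM in KPC-OG. They were lowest within KPC-OG in KPC-OG 3, as were Oas1a, Oasl1 and Oasl2, and their part was not tested. Gbp2, Isg15 and Zbp1, which also rose, were lowest within KPC-OG in KPC-OG 1, where neither the macrophage nor the duct sum was lowest. Of 6 tested markers of plasmacytoid dendritic cells, specialised producers of type I interferon, Ly6d rose (log2 fold change 2.73, edgeR adjusted p = 0.00133), Klk1 fell (log2 fold change -1.90, edgeR adjusted p = 0.0185) and 4 did not pass the test. Among those 4, Siglech had 0 reads in KPC 1 and KPC 3 and ranged from 0.244 to 2.62 CPM in KPC-OG. Its edgeR adjusted p was 0.894, against 0.302 for Spib, 0.749 for Ccr9 and 0.693 for Pacsin1. Klk1 stood at 2700 to 5731 CPM in KPC and at 550 to 2462 CPM in KPC-OG, far above the other genes of this list. Like the acinar sum, Klk1 was highest in KPC 1 and KPC 4 and, within KPC-OG, in KPC-OG 3. Ly6d, like the duct sum, was lowest within KPC-OG in KPC-OG 3. Neither call can be tied to plasmacytoid dendritic cells in whole tissue. The markers of this list were named after their values were seen.

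**Figure D5:**
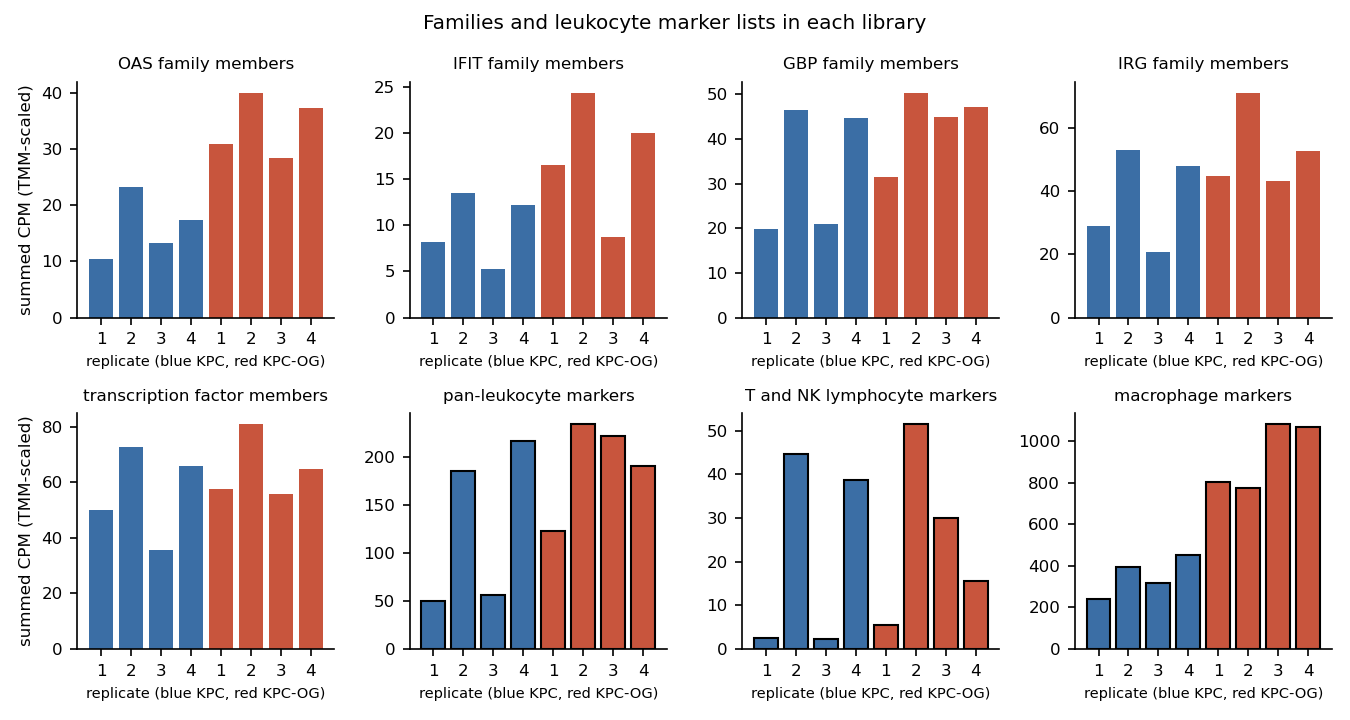
Summed CPM of 4 families and of the transcription factors, and of 3 leukocyte marker lists (outlined bars), in each library. The GBP sum is 19.9 and 20.96 CPM in KPC 1 and KPC 3 against 46.4 and 44.6 CPM in KPC 2 and KPC 4. The pan-leukocyte, lymphocyte and macrophage sums are also lower in KPC 1 and KPC 3 than in KPC 2 and KPC 4. The OAS sum is higher in every KPC-OG library than in every KPC library.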

How the data were processed

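Whole-pancreas RNA of 8 libraries was quantified per transcript by the authors with Sailfish 0.6.3, using words of 20 bases and an index of Ensembl release 76, per the file headers. The deposited estimated counts are bias-corrected reads per transcript that need not be whole, and the deposited TPM values are the same estimates per length. STAR 2.0.4b, bcl2fastq, limma and edgeR also stand in the submitters' processing notes, with no role given. Of 86127 transcripts, 83827 matched GENCODE M21 (GRCm38). The other 2300, with 1.45% to 4.23% of reads per library, were left out. Estimated counts were summed per gene and rounded.

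The test was edgeR 4.0.16 (quasi-likelihood, robust, R 4.3.3) over 14267 genes kept by filterByExpr, with TMM scaling and Benjamini-Hochberg adjustment at 0.05. Each SE was obtained from the F statistic, as the ratio of the log2 fold change to its square root. TMM factors were 0.483 to 0.653 in KPC and 1.14 to 2.28 in KPC-OG, so effective depth and precision are lower in KPC. The scripts were first tested on simulated data. Library pairs of a group differed beyond counting noise, so none was a duplicate.

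The 33 members and the other gene lists were chosen with earlier results of these data known. Every member is accounted for, and values in every library are given for members past the test and the best expressed of each family. From each other pathway list come up to 3 genes past the test with the smallest adjusted p, or else the best expressed. From the marker lists come up to 2 genes with the highest TPM. Other genes are said to be chosen after their values were seen. Alternatives changed scaling, tool, filter, unit, transcript set, depth and libraries. Strand is not stated, so overlapping and antisense genes cannot be told apart, and near-identical genes share reads by estimation. Words shared between genes were counted on GENCODE M21 transcripts. RefSeq promoters matched 24 of the 32 members. A gene of the list of nucleic acid sensors is not reported here.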

Additional observations from a re-analysis of the deposited data

Results flagged for a closer look

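Within groups of 4 libraries, 5 of the 94 gene-by-genotype sets examined held a library far from the others by Dixon's criterion, and chance alone gives about 1 in 20. Oasl1 stood at 3.99 CPM in KPC-OG 3, against 5.97 to 6.22 CPM in the other KPC-OG libraries. Ifit1 stood at 1.86 CPM in KPC 3, against 3.76 to 3.88 CPM in the other KPC libraries. Bst2 stood at 27.1 CPM in KPC-OG 2, against 17.2 to 18.4 CPM in the other KPC-OG libraries. Socs3 stood at 8.49 CPM in KPC 3, against 17.7 to 18.9 CPM in the other KPC libraries. Mavs stood at 13.3 CPM in KPC 2, against 20.96 to 21.4 CPM in the other KPC libraries.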

How the results depend on the processing

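Across 22 alternatives the scaling mattered most. With library sizes alone, 30 members were called higher and 0 lower, as among all genes 13078 and 99 were. TPM gave 30 and 0 members with either pseudocount, with 12856 and 121 genes at a pseudocount of 1 and 12817 and 120 at 0.1. Library sizes re-centred on the median gene gave 3 members higher and 1 lower, and 911 and 1413 genes, so 39.2% of calls were higher against 51.2% with TMM. The cause of the shift was not tested. Protein-coding transcripts only gave 0 members lower. With TPM and a pseudocount of 1, centred on the typical gene as chosen after seeing the data, the median log2 fold change was 0.67 in the OAS family and 0.11 in the IFIT family.

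Leaving out 1 library gave 3 to 10 members higher and 1 lower, and 1689 to 2880 genes higher and 1705 to 2548 lower. The family medians then ran from 1.01 to 1.55 (OAS), 0.46 to 0.99 (IFIT), 0.06 to 0.61 (GBP) and 0.35 to 0.84 (IRG). DESeq2 called 8 members higher and 1 lower. The replicate block gave 9 members higher and 1 lower. The numbers pair no samples by the labels: deviations of same-numbered libraries correlated at 0.274, 0.275, 0.0385 and 0.0361, and 5 of 8 libraries correlated best with their own number. Ifnar2, Tmem173, Irf2bpl and Ube2l6 lost their call under 1 of 19 alternatives, re-centred library sizes, at adjusted p-values of 0.121, 0.0850, 0.106 and 0.0523. Tested members held 14 to 370 reads over the 4 KPC libraries, and how far depth or spread between libraries limits the calls was not separated.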
